A study of Mus musculus with 5 samples.

Results

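The collagen genes of mouse embryonic stem cells were compared between wildtype cells and cells that lack the −45 super-enhancer of Nanog, a dense cluster of enhancers near that pluripotency gene. Members were all gene symbols of the deposited exon count table made of Col, a chain type number, the letter a and a chain number. The rule gave 33 collagen genes of 24538 genes in all, of which 10855 were named by a symbol and 13683 by an assembly ID. A further 11 collagen symbols of the class lists, Col4a1 and Col4a2 of basement membranes among them, had no row under their symbol and were not analysed here. Collagens are triple helices of 3 chains whose repeat, glycine plus a pair of other residues, winds the chains around each other. Fibrillar collagens form the banded fibrils of connective tissue, network collagens form the sheets of basement membranes, and FACIT collagens (fibril-associated collagens with interrupted triple helices) sit on the surface of fibrils. Pluripotent cells in culture are known mainly for basement membrane collagen, while fibroblasts, chondrocytes and endoderm derivatives are the usual sources of the others.

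Polyadenylated RNA was sequenced from 3 libraries labelled wildtype (wildtype 1 to 3) and 2 labelled as deleted for the −45 super-enhancer (deleted 1 and 2), all described as murine embryonic stem cells. The design text counts 3 replicates for each of the 2 conditions, and 1 deletion library was not analysed here. Cultures were treated for 6 days with ethanol vehicle or with 4-hydroxytamoxifen, the ligand of tamoxifen-dependent recombinases, without a statement in the labels of the agent given to each library. Nor do they state if each library had its own culture or clone. The p-values therefore cover the spread among these libraries alone, which may be technical.

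Totals of bin counts ran from 93574214 to 213042064, wildtype 3 being the deepest, and 1 count was worth 0.00463 to 0.0107 CPM (counts scaled to a common library size, with TMM factors). None of the 16 listed stem cell markers had a row under its symbol, Nanog included, so neither the cell type nor the deletion was checked against its defining genes. Rows with symbols held 0.328% to 0.375% of the counts, and tested symbols had a median log2 CPM of −1.12 against 4.39 for assembly IDs. Wildtype 3 stood apart in genes of many exon bins, the pieces into which exons are divided. In tested symbols of over 40 bins its median log2 difference from the mean of wildtype 1 and 2 was 0.33, and in tested collagen genes it was 0.35, against 0.004 in symbols of 1 to 5 bins. The part of this offset in the collagen results was not tested, and values without wildtype 3 stand beside the calls. In bulk RNA, more cells of a type and more RNA per cell cannot be told apart.

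Of the 33 collagen genes, 23 had enough counts for a test, and 6 of these were higher in the deleted cells: Col1a2, Col11a1 and Col5a2 of the fibrillar class, Col9a1 of the FACIT class, and Col6a1 and Col6a2 of collagen VI. None was lower at edgeR adjusted p under 0.05, and 17 did not pass. At an unadjusted p under 0.05 with edgeR, 7 were higher and 2 lower. The share of all tested genes at that cut is not given here. It is at least the 39.5% that passed the adjusted one. DESeq2 called 5 higher and 1 lower, where it called 39.6% of all genes (19.2% higher, 20.4% lower). Limma-voom called 6 higher and 0 lower, where it called 38.7% of all genes (19.7% higher, 19.0% lower). The share of tested collagens that was higher, 26.1%, is to be read against 19.9% of all tested genes (19.6% were lower), 18.9% of tested symbols and 23.3% of tested symbols of over 40 bins called higher in the same fit. In either direction, 39.5% of all tested genes and 31.8% of tested symbols passed. The number of collagen genes called was therefore near the background.

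The count moved with single libraries, as did the share of all genes called. Without wildtype 3, 8 collagens were called, all higher, and 51.5% of all genes (25.8% higher, 25.7% lower). Without wildtype 1, 3 collagens were called, all higher, and 32.4% of all genes (15.3% higher, 17.1% lower). Without wildtype 2, 3 collagens were higher and 1 lower, and 31.7% of all genes were called (16.0% higher, 15.8% lower). Without deleted 1, 2 collagens were higher, and 19.3% of all genes were called (10.1% higher, 9.23% lower). Without deleted 2, 1 collagen was higher and 1 lower, and 23.3% of all genes were called (10.8% higher, 12.5% lower). With 1 deleted library left out, the spread of the lone one was taken to equal that of wildtype. With library sizes taken from symbol rows alone, Col2a1, Col6a4 and Col6a5 were called lower beside the same 6 higher genes, where 33.4% of the genes tested were called (16.9% higher, 16.4% lower). Against a fold change of 1.5, edgeR called 0 of 23 collagens, with 3 at an unadjusted p under 0.05, and 5.01% of all genes (2.76% higher, 2.24% lower). The share of all genes at that unadjusted cut is not given here.

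All collagen members together held 0.00141% to 0.00185% of a library's counts. Their summed level was 14.2, 14.1 and 18.2 CPM in wildtype 1, 2 and 3, and 15.6 and 17.6 CPM in deleted 1 and 2. The groups overlapped, so the amount of collagen RNA under these symbols did not separate wildtype from deleted cells. The most abundant tested gene averaged 3.51 CPM. The 10 untested genes had 5 to 35 counts over all 5 libraries and reached at most 0.0833 CPM in any of them.

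**Figure D1:**
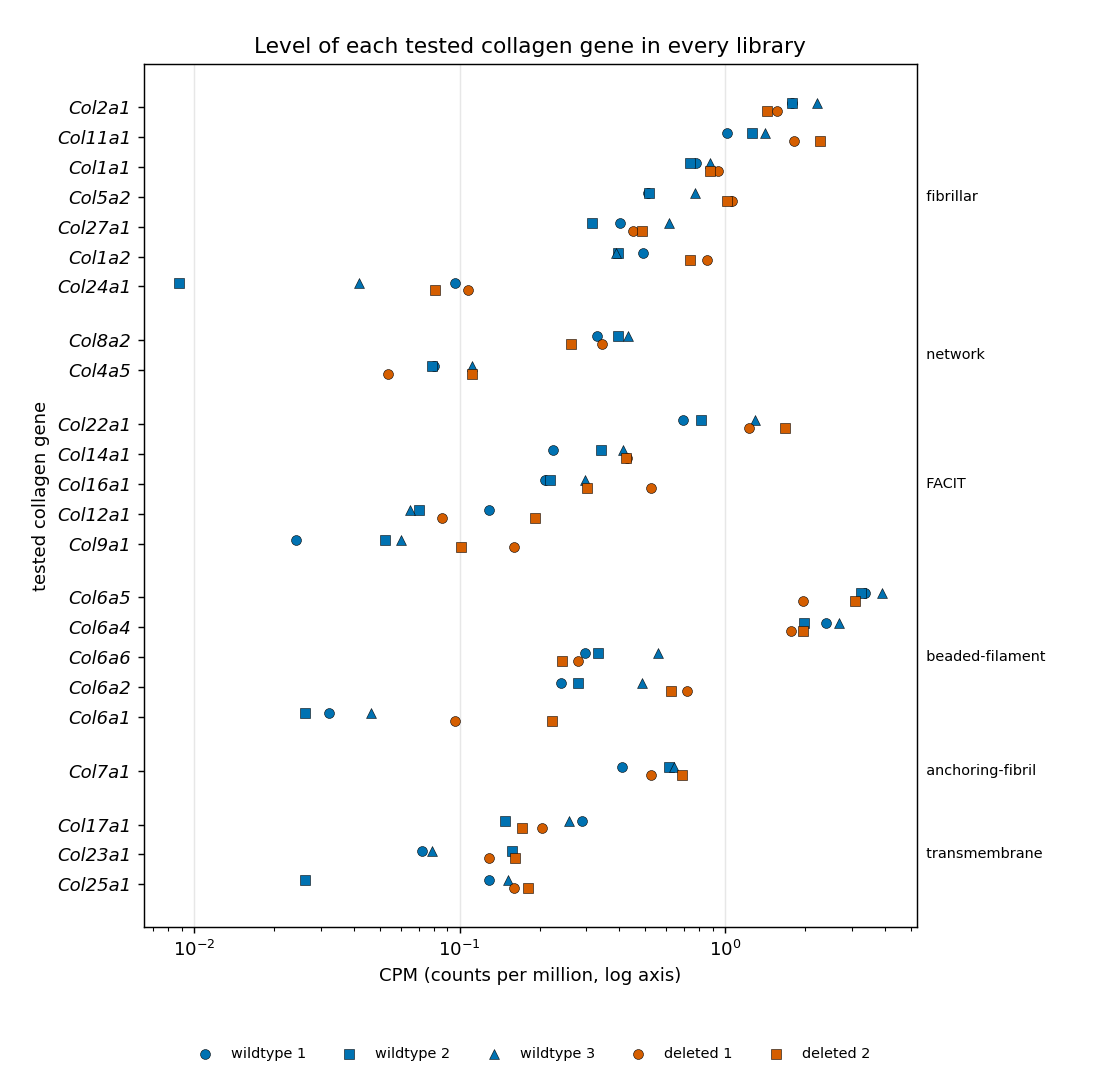
Level of the 23 tested collagen genes in each library, in CPM on a log axis, grouped by collagen class. Blue marks are the 3 wildtype libraries and orange marks the 2 deleted ones. Both deleted libraries lie above all wildtype libraries in 10 genes and below all of them in 4. The same holds for 32.8% and 24.2% of all tested symbols.

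The classes differed in direction, a difference that was not tested because the members are few and were not chosen at random. Of 7 tested fibrillar genes, 3 were higher and 4 did not pass, with a median log2 fold change (deleted minus wildtype) of 0.72. Of 5 tested FACIT genes, 1 was higher and 4 did not pass, and all 5 had positive log2 fold changes, with a median of 0.72. Neither of the 2 tested network genes passed with edgeR, DESeq2 or limma-voom, or at an unadjusted p under 0.05 with any of them, and their median was −0.27. The median over all tested symbols was 0.07.

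The medians of tested members are partly set by the low-count filter, which a gene could meet through the 2 deleted libraries alone. Col6a1 and Col9a1 met it only in that way, and both were called higher. Under a filter on the mean count over all 5 libraries, which does not use the groups, 20 collagens were tested and 4 were called higher, against 39.4% of all genes called in that fit (19.8% higher, 19.6% lower), and the median log2 fold change over the collagens was 0.27 in place of 0.56. Summing every member of a class, tested or not, avoids the filter. The sums leave out genes without a row: 2 of 11 fibrillar, 3 of 9 network and 3 of 9 FACIT genes. Col4a1 and Col4a2 are among the missing network genes. Fibrillar collagens summed to 5.14, 5.07 and 6.42 CPM in wildtype 1, 2 and 3 and to 6.86 and 6.98 CPM in deleted 1 and 2. FACIT collagens summed to 1.28, 1.52 and 2.17 CPM in wildtype and to 2.44 and 2.70 CPM in deleted libraries. Network collagens summed to 0.482, 0.586 and 0.629 CPM in wildtype and to 0.418 and 0.444 CPM in deleted libraries.

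In each of these 3 classes the groups did not overlap, fibrillar and FACIT sums being higher and network sums lower in the deleted libraries. Among single tested symbols, both deleted libraries were above all wildtype ones in 32.8% and below all in 24.2%. No such share was computed for sums of genes. The log2 ratio of mean sums was 0.32 for fibrillar, 0.63 for FACIT and −0.39 for network collagens. The most counted gene held 30.4% (Col2a1, fibrillar), 57.0% (Col22a1, FACIT) and 68.5% (Col8a2, network) of the class counts. Col2a1 was lower in both deleted libraries, opposite to the fibrillar sum. Taken alone, Col22a1 and Col8a2 had overlapping groups. The network sums lay close, at 0.482 CPM in wildtype 1 and 0.444 CPM in deleted 2. The beaded-filament class, the chains of collagen VI, summed to 6.37, 5.93 and 7.77 CPM in wildtype and to 4.82 and 6.20 CPM in deleted libraries, and its groups overlapped.

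**Figure D2:**
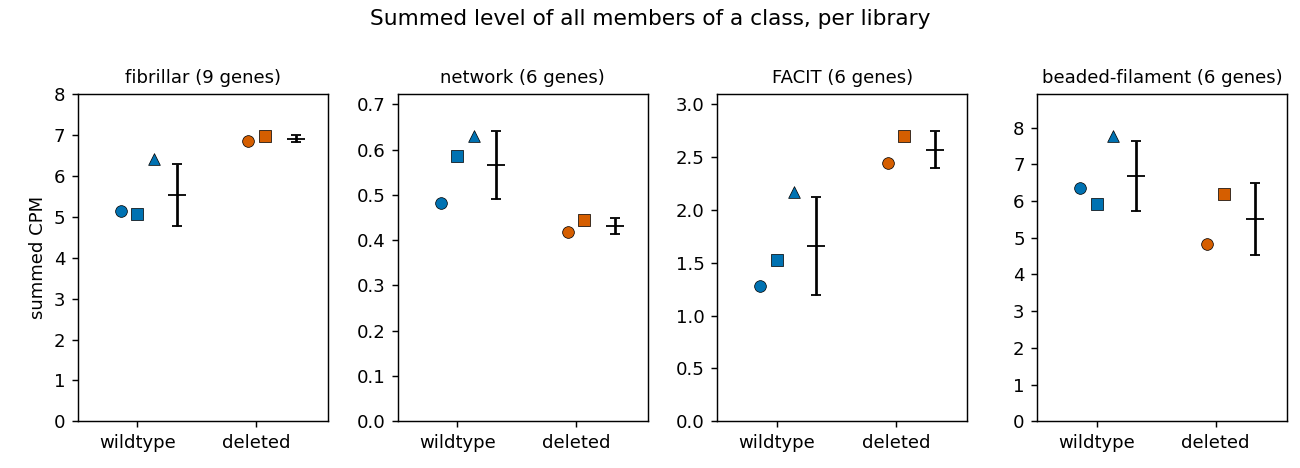
Summed CPM of all members of the fibrillar (9 genes), network (6), FACIT (6) and beaded-filament (6) classes. Points are libraries (circle 1, square 2, triangle 3), and bars beside them are the mean and SD. Wildtype 3 is the highest wildtype library in all 4 panels, and wildtype and deleted points overlap only in the beaded-filament panel.

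Among fibrillar genes, Col1a2, which encodes the α2 chain of collagen I, had the smallest p of all collagens. It stood at 0.490, 0.394 and 0.389 CPM in wildtype 1, 2 and 3, and at 0.857 and 0.737 CPM in deleted 1 and 2. Both deleted libraries were above all wildtype ones, and wildtype 3 was not raised here. The means were 0.797 ± 0.0852 (SD, n = 2) against 0.424 ± 0.0573 CPM (SD, n = 3). The log2 fold change was 0.92 with an SE of 0.18 (edgeR adjusted p = 0.00610), or 1.89-fold. The call ended without deleted 1 (log2 fold change 0.80; edgeR adjusted p = 0.0634).

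Col1a1, the partner that supplies the other 2 chains of a collagen I helix, stood at 0.780, 0.735 and 0.875 CPM in wildtype and at 0.943 and 0.878 CPM in deleted libraries. The deleted libraries were above all wildtype ones by a narrow margin, and the log2 fold change of 0.18 ± 0.15 did not pass (edgeR adjusted p = 0.372). Whether the partners differed in response was tested on their log2 ratio within each library. The ratio of Col1a2 to Col1a1 was −0.67, −0.90 and −1.17 in wildtype and −0.14 and −0.25 in deleted libraries, a difference of 0.72. The ratios did not overlap, and the exact two-sided permutation p was 0.2. This test doubles the one-sided p, and 0.2 is the smallest it can give with 2 against 3 libraries. With 2 such ratios tested, the adjusted p was 0.2 as well.

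Col11a1 and Col5a2 encode chains of collagens XI and V, minor fibrillar collagens that are built into fibrils and limit their width. Col11a1 stood at 1.02, 1.26 and 1.41 CPM in wildtype and at 1.82 and 2.27 CPM in deleted libraries, with a log2 fold change of 0.72 ± 0.17 (edgeR adjusted p = 0.0118). Col5a2 stood at 0.514, 0.516 and 0.773 CPM in wildtype and at 1.06 and 1.02 CPM in deleted libraries, with a log2 fold change of 0.75 ± 0.21 (edgeR adjusted p = 0.0241). Neither gene's groups overlapped. The Col11a1 call ended without deleted 2 (log2 fold change 0.54; edgeR adjusted p = 0.123) and when only the bin with the most counts was used (0.76; edgeR adjusted p = 0.133). The Col5a2 call held only when wildtype 3 was the library dropped (log2 fold change 1.003; edgeR adjusted p = 0.000916), and the other 4 omissions gave edgeR adjusted p of 0.0626 to 0.124.

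Col2a1, the collagen II gene of cartilage and also the fibrillar gene with the most counts, went the other way. It stood at 1.79, 1.79 and 2.22 CPM in wildtype and at 1.56 and 1.44 CPM in deleted libraries, so both deleted libraries were below all wildtype ones. Its log2 fold change of −0.37 ± 0.14 did not pass (edgeR adjusted p = 0.0700), and passed with library sizes from symbol rows alone (−0.45; edgeR adjusted p = 0.0193). Col27a1, a fibrillar collagen of cartilage, had 0.02 ± 0.30 with overlapping groups (edgeR adjusted p = 0.963). Col24a1 had 0.93 ± 0.69 on 40 counts in all (edgeR adjusted p = 0.321). Col3a1, the collagen III gene of elastic tissues, and Col11a2 were not tested, with 12 and 30 counts over the 5 libraries.

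**Figure D3:**
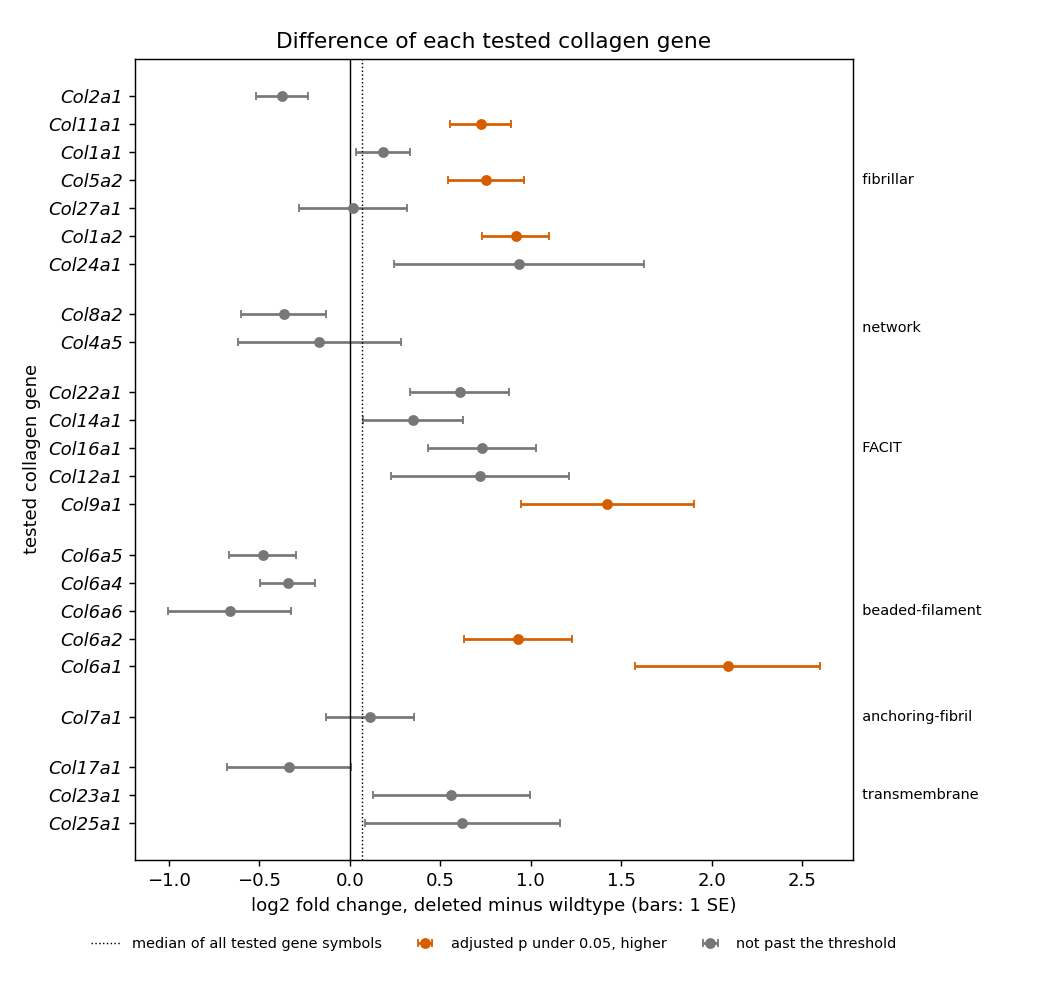
Log2 fold change (deleted minus wildtype, bars 1 SE) of the 23 tested collagen genes by class. Orange points passed edgeR adjusted p under 0.05, and the dotted line is the median of all tested symbols, 0.07. The 5 FACIT genes lie right of 0, both network genes lie left of it, and the fibrillar and collagen VI genes lie on both sides.

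Of the 6 network collagens, 4 had too few counts for a test. Col8a2, a short-chain collagen of the hexagonal network under corneal and vascular endothelium, stood at 0.330, 0.394 and 0.430 CPM in wildtype and at 0.343 and 0.262 CPM in deleted libraries. The groups overlapped, and its log2 fold change was −0.36 ± 0.23 (edgeR adjusted p = 0.255). Col4a5, a basement membrane chain of the kidney glomerulus encoded on the X chromosome, had 59 counts in all and a log2 fold change of −0.17 ± 0.45 (edgeR adjusted p = 0.796). Col4a3 and Col4a4, neighbours on chromosome 1 whose chains assemble with that of Col4a5, had 22 and 12 counts. Col4a6, the neighbour of Col4a5, had 11, and Col8a1, the partner of Col8a2, had 5, with none in either deleted library. A change in these 4 genes was not detectable at this depth, where 3 counts correspond to 0.0139 to 0.0321 CPM.

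FACIT collagens do not form fibrils themselves and carry large non-collagenous domains. Col9a1, a chain of the collagen IX that decorates collagen II fibrils, was higher at 0.161 and 0.101 CPM in deleted libraries against 0.0241, 0.0525 and 0.0602 CPM in wildtype. These levels are 15 and 10 counts against 3, 6 and 13, so the log2 fold change of 1.42 ± 0.48 (edgeR adjusted p = 0.0470) rests on few reads. The counts are sums over bins, and a read crossing bin borders counts more than once, so the reads can be fewer still. Omitting wildtype 3 kept the call, and omitting any of the other 4 lost it (edgeR adjusted p of 0.0786 to 0.304). It was also lost with DESeq2 (adjusted p = 0.0879), and with no low-count filter (edgeR adjusted p = 0.0623).

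The other 4 tested FACIT genes did not pass. Col16a1, whose product is found in fibrils of skin and cartilage, stood at 0.209, 0.219 and 0.296 CPM in wildtype and at 0.525 and 0.303 CPM in deleted libraries (log2 fold change 0.73 ± 0.30; edgeR adjusted p = 0.0892). Col22a1, of muscle-tendon junctions, stood at 0.691, 0.814 and 1.29 CPM in wildtype and at 1.23 and 1.68 CPM in deleted libraries (0.61 ± 0.27; edgeR adjusted p = 0.114). Wildtype 3 overlapped the deleted libraries for Col22a1 and lay just under deleted 2 for Col16a1. Without wildtype 3, both passed, with log2 fold changes of 0.93 (edgeR adjusted p = 0.0347) and 0.95 (edgeR adjusted p = 0.00185). Col14a1 and Col12a1, FACIT collagens of tendon and dermis, had 0.35 ± 0.27 and 0.72 ± 0.49 (edgeR adjusted p = 0.350 and 0.282). Col19a1, with 14 counts, was not tested.

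Collagen VI forms beaded microfilaments around cells, and 5 of its 6 genes were tested. Col6a1 and Col6a2, neighbours on chromosome 10, encode chains that assemble with an α3-type chain. Col6a2 rose from 0.241, 0.280 and 0.486 CPM in wildtype to 0.718 and 0.626 CPM in deleted libraries, a log2 fold change of 0.93 ± 0.30 (edgeR adjusted p = 0.0409). Col6a1 stood at 0.0322, 0.0263 and 0.0463 CPM in wildtype and at 0.0964 and 0.222 CPM in deleted libraries, a log2 fold change of 2.09 ± 0.51 (edgeR adjusted p = 0.0144). Neither gene's groups overlapped, but the Col6a1 values are 4, 3 and 10 counts against 9 and 22, and deleted 2 alone held the larger part of the rise. As for Col9a1, the reads behind these counts can be fewer.

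The Col6a1 call ended without deleted 2 (log2 fold change 1.34; edgeR adjusted p = 0.183). That of Col6a2 was lost on omitting each library except wildtype 3 (edgeR adjusted p of 0.0917 to 0.199), and without wildtype 3 its log2 fold change was 1.36 (edgeR adjusted p = 0.000767). The log2 ratio of Col6a1 to Col6a2 was −2.91, −3.42 and −3.39 in wildtype and −2.90 and −1.49 in deleted libraries. The difference of 1.04 had an exact two-sided permutation p of 0.2, again the smallest this test can give, and deleted 1 was at the level of wildtype 1.

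The α3-type genes Col6a4, Col6a5 and Col6a6 lie together on chromosome 9, and all 3 had negative log2 fold changes that did not pass. Col6a5 had the highest level of any collagen member, at 3.36, 3.26 and 3.90 CPM in wildtype and 1.96 and 3.08 CPM in deleted libraries (−0.48 ± 0.18; edgeR adjusted p = 0.0733). Col6a4 stood at 2.40, 1.98 and 2.69 CPM in wildtype and at 1.77 and 1.97 CPM in deleted libraries (−0.34 ± 0.15; edgeR adjusted p = 0.109). Col6a6 stood at 0.297, 0.333 and 0.560 CPM in wildtype and at 0.279 and 0.242 CPM in deleted libraries (−0.66 ± 0.34; edgeR adjusted p = 0.161). In all 3 genes both deleted libraries were below every wildtype library, for Col6a4 by a narrow margin.

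Deleted 1 set most of the Col6a5 difference: without deleted 2 it passed (−0.86; edgeR adjusted p = 0.0176), and without deleted 1 it was −0.19 (edgeR adjusted p = 0.412). Col6a5 also passed with DESeq2 (−0.48; adjusted p = 0.0482). The 200 tested symbols of chromosome 9 had a median log2 fold change of 0.03, and the 169 of chromosome 10 one of 0.08. Col6a3, the usual partner of Col6a1 and Col6a2, was not tested, with 34 counts.

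**Figure D4:**
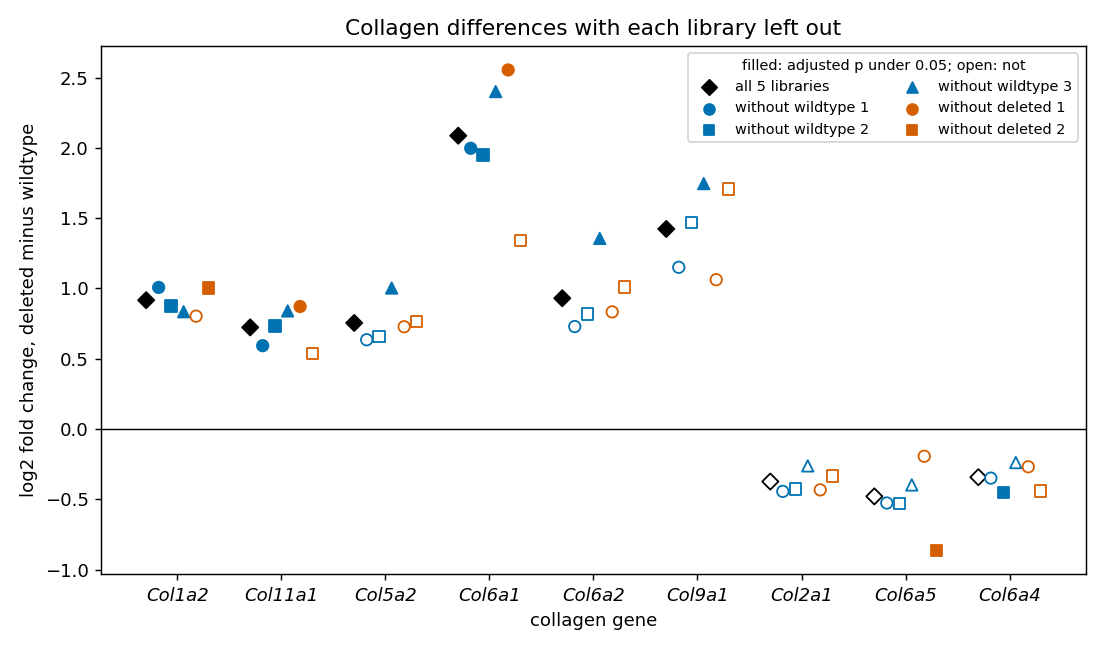
Log2 fold changes of the 6 called collagen genes and of Col2a1, Col6a5 and Col6a4 with all 5 libraries (black) and with each library left out. Filled marks passed edgeR adjusted p under 0.05. No sign changed in these 9 genes, and Col5a2, Col6a2 and Col9a1 stayed past the threshold only when wildtype 3 was the library left out.

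The remaining classes showed no call. Col7a1, the anchoring fibril collagen that ties epidermis to dermis, stood at 0.410, 0.613 and 0.643 CPM in wildtype and at 0.525 and 0.686 CPM in deleted libraries (0.11 ± 0.24; edgeR adjusted p = 0.746). The transmembrane collagens Col17a1 of hemidesmosomes, Col23a1 and Col25a1 had log2 fold changes of −0.34 ± 0.34, 0.56 ± 0.43 and 0.62 ± 0.54 (edgeR adjusted p = 0.475, 0.341 and 0.398). Col15a1 and Col28a1 were not tested, with 35 and 17 counts.

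Groups that do not overlap were common in the series. Among the 23 tested collagens both deleted libraries were above all wildtype ones in 10 and below all in 4, against 32.8% and 24.2% of tested symbols and 31.9% and 31.3% of all tested genes. Of these 14 genes, 8 did not pass the test.

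Levels between genes are compared per kb of transcript, with lengths from GENCODE vM21 for the transcript with the longest coding sequence. In wildtype, Col2a1 and Col6a5 were highest at 0.379 and 0.378 CPM per kb, and Col6a4 followed at 0.320. Col11a1 at 0.161, Col1a1 at 0.134 and Col22a1 at 0.106 CPM per kb came next, and Col5a2, Col8a2, Col6a2 and Col1a2 lay between 0.0793 and 0.0907. In deleted cells Col2a1 was at 0.295, Col6a5 at 0.271, Col11a1 at 0.267 and Col6a4 at 0.253 CPM per kb, so Col11a1 stood among the 3 most abundant. The order of neighbours in these lists was not tested, and in wildtype Col2a1 and Col6a5 differed by less than the SD of either.

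Coding exon lengths set the fibrillar genes apart from most other members, while the other classes overlap one another. A glycine triplet is coded by 9 bases, and fibrillar genes are known for exons that hold whole triplets. In the 9 fibrillar genes the median coding exon was 54 bases long in every one, and 78.8% to 88.5% of coding exons were multiples of 9 bases. The share was 0% to 55.6% in the 6 network genes, 21.5% to 73.0% in the 6 FACIT genes and 44.2% to 66.7% in the 6 collagen VI genes. In the 3 transmembrane genes it reached 78.6%, just under the fibrillar minimum. A median of 54 bases was also found in some FACIT genes, such as Col22a1. Col1a2 had 46 such exons of 52, whereas Col12a1 had 14 of 65. Genes cut into so many short exons have many bins, with a median of 51 bins per member and 22 of 33 members above 40, and reads crossing bin borders count more than once. The levels per kb of fibrillar genes can therefore be raised relative to genes of long exons such as Col8a2, whose median coding exon had 1048 bases.

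Counts were spread over the whole gene in some members and confined to part of it in others. Col2a1, Col1a1, Col1a2, Col5a2 and Col11a1 had counts in every bin (54, 51, 52, 54 and 67 bins), the 3 most counted bins holding 15.2% of the counts of Col1a2 and 34.7% of those of Col2a1. In Col6a5, by contrast, 98.9% of 2122 counts lay in bins 1 to 27 and 24 counts lay in bins 28 to 41. In Col17a1 all 145 counts lay in bins 1 to 38, and in Col16a1 97.9% of 194 counts lay in bins 22 to 70. For these 3 genes the level describes part of the annotated gene, and the table does not say which end of the transcript bin 1 is.

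In Col6a4, bins 1 to 6 held 27.1%, bins 7 to 29 held 28.4% and bins 30 to 36 held 44.4% of 1466 counts. The stretch of bins 30 to 36 stood at 1.11, 0.858 and 1.19 CPM in wildtype and at 0.739 and 0.888 CPM in deleted libraries, and bins 1 to 6 stood at 0.635, 0.578 and 0.745 against 0.504 and 0.444 CPM. The middle bins 7 to 29 stood at 0.659, 0.543 and 0.740 against 0.525 and 0.636 CPM. In bins 1 to 6 the groups did not overlap, and in the other stretches they did. These stretches were chosen after the values were seen and carry no test.

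Exon usage (how the counts of a gene divide among its bins) could be tested in 4 collagen genes with enough counts in several bins: Col2a1, Col6a4, Col6a5 and Col22a1. None passed (edgeR Simes adjusted p = 0.999992 for all 4), against 2.76% of all 13045 genes tested. At an unadjusted p under 0.05 there were 0 as well. For the other members, differences between bins were not detectable at this depth.

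**Figure D5:**
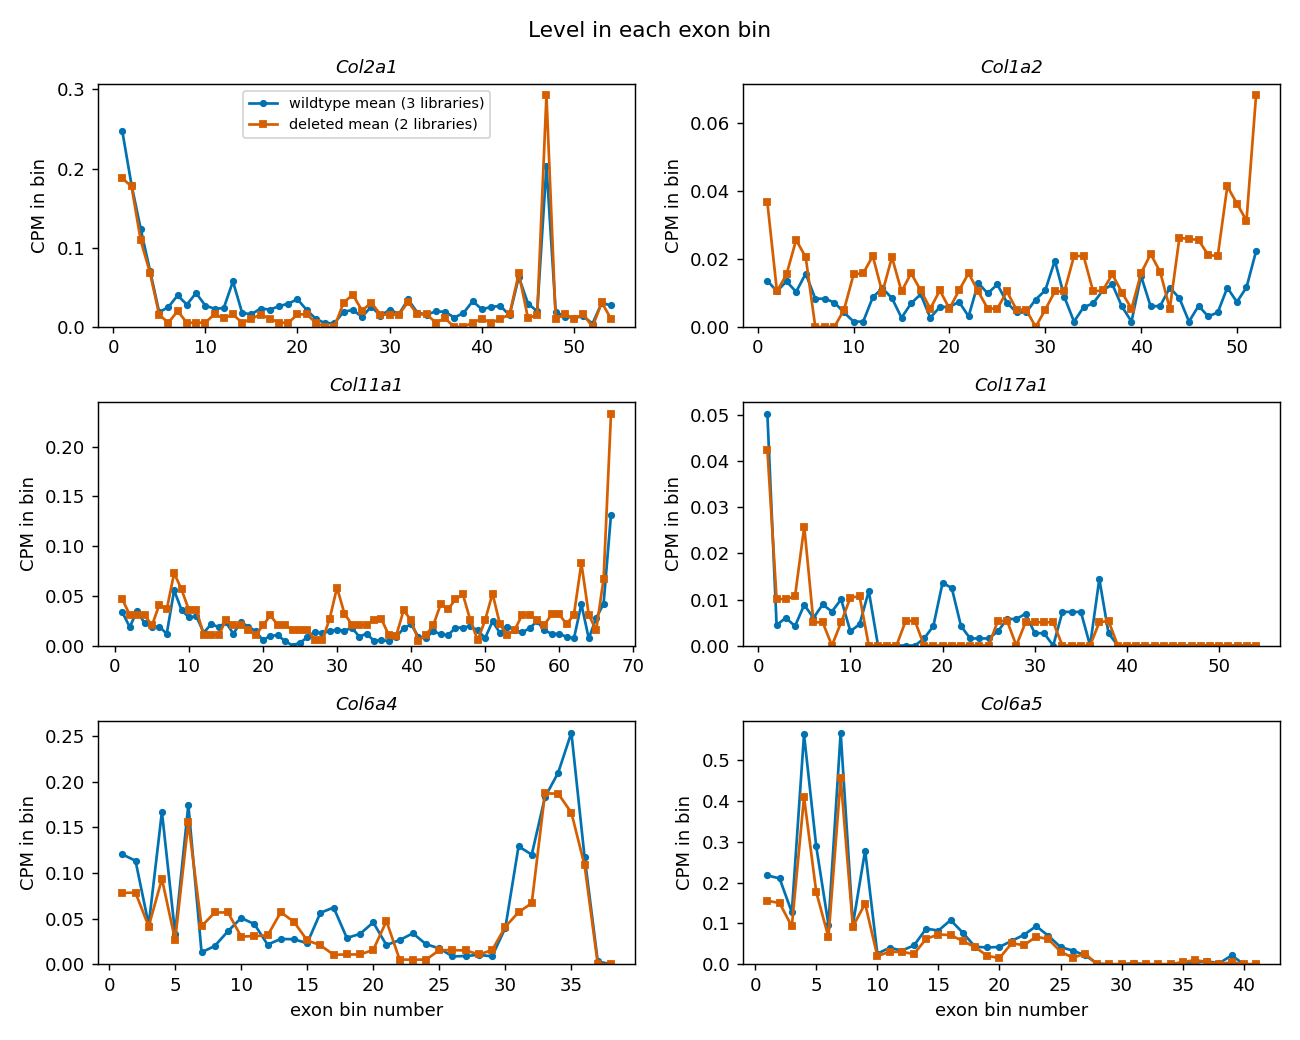
Mean CPM in each exon bin, in the order of bin numbers, for Col2a1, Col1a2, Col11a1, Col17a1, Col6a4 and Col6a5 (blue: 3 wildtype libraries; orange: 2 deleted libraries; vertical scales differ). Col1a2 and Col11a1 have counts along the gene with a peak in the last bin (bins 52 and 67), whereas Col6a5 falls to near 0 after bin 27 and Col17a1 after bin 38.

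Promoter sequences are shown for the genes called higher, since these 6 moved in the same direction and come from 3 different classes. They are from RefSeq (GRCm38.p6, a build other than the mm9 of the submitters' notes), whose promoter entries matched 26 of the 33 members with 28 starts. Col5a2 is not among them, and Col6a2 and Col9a1 have 2 starts each. Each sequence is the 150 bases before a start, 5′ to 3′ on the gene's strand, with capitals for matches to 3 motifs, namely TATAAA (the TATA box), CCAAT (the CCAAT box) and the GC box GGGCGG, on either strand, so that a match on the other strand shows as its reverse complement.
Col1a2 (chr6:4505468-4505617, plus strand): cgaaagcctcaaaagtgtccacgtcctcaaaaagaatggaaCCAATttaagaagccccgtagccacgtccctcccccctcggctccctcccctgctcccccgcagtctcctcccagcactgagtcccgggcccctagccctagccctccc
Col11a1 (chr3:114030390-114030539, plus strand): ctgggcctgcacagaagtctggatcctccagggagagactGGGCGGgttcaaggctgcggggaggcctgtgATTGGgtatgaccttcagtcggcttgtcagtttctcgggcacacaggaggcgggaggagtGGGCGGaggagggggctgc
Col6a1 (chr10:76726045-76726194, minus strand): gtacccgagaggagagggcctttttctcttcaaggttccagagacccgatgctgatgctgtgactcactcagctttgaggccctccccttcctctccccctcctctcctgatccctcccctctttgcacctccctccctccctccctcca
Col6a2 (chr10:76623405-76623554, minus strand): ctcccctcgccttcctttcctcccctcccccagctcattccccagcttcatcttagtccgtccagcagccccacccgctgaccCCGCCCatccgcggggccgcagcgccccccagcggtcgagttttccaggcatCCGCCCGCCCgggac
Col6a2 (chr10:76623631-76623780, minus strand): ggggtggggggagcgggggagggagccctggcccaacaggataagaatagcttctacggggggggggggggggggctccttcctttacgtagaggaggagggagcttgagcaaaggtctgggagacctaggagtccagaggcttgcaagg
Col9a1 (chr1:24177460-24177609, plus strand): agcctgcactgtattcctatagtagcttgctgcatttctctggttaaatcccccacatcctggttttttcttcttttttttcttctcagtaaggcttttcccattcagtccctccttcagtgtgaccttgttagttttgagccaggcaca
Col9a1 (chr1:24195053-24195202, plus strand): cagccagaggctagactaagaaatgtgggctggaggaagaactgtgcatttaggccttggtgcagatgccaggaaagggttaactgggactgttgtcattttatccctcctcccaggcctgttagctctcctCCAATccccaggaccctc

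CCAAT is the motif of the factor NF-Y, known from collagen I promoters, and GGGCGG is the GC box bound by Sp1. In the 250 bases before each start, CCAAT lay in 9 of 28 collagen promoters (32.1%) and in 33.8% of all 32851 promoters in the table. GGGCGG lay in 17 of 28 (60.7%) against 32.7% of all, and TATAAA in 3 of 28 (10.7%) against 12.4%. The called genes did not share a motif in the bases shown: Col1a2 and the second Col9a1 start had CCAAT, Col11a1 had both CCAAT and GGGCGG, Col6a2 had GGGCGG at 1 start, and Col6a1 had none. In the full 250 bases, Col1a2, Col11a1 and Col6a2 had GGGCGG, and Col6a1 and Col9a1 did not. A match is a description of letters, not of binding.

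Genes that fold, process, bind or degrade collagen, and genes of its matrix partners, were examined from lists. Their counts are to be read against the 18.9% of tested symbols called higher and 12.9% called lower, or 19.9% and 19.6% of all tested genes. Of 26 listed folding and modification genes, 6 had rows and 4 were tested. Of these 4, 2 were lower and none was higher. Fkbp14, a prolyl isomerase of the endoplasmic reticulum that folds procollagen, fell from 1.95, 2.43 and 1.82 CPM in wildtype to 1.02 and 1.13 CPM in deleted libraries (log2 fold change −0.93 ± 0.16; edgeR adjusted p = 0.00340). P3h3, of the prolyl 3-hydroxylase family, fell by 0.66 ± 0.19 on the log2 scale (edgeR adjusted p = 0.0252), a call lost on omitting wildtype 1 or deleted 1 (edgeR adjusted p = 0.0608 and 0.156). Colgalt2, a collagen galactosyltransferase gene, and P3h2 had −1.17 ± 0.45 and −0.34 ± 0.69 (edgeR adjusted p = 0.0751 and 0.727). These 4 genes all had negative log2 fold changes, but that of P3h2 was 0.10 without wildtype 3 and 0.44 without deleted 2. Of the 23 tested collagens, 16 had positive ones. The share of positive signs over all tested symbols is not given here, so the sets were not compared.

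Of 5 tested processing and crosslinking genes, only Adamts14 passed, a procollagen N-propeptidase gene at 1.27, 1.45 and 1.65 CPM in wildtype and 1.99 and 2.21 CPM in deleted libraries (0.52 ± 0.14; edgeR adjusted p = 0.0213). That call was lost on omitting each library except wildtype 3 (edgeR adjusted p of 0.0544 to 0.160). In its most counted bin alone, Adamts14 had 0.14 and its call was lost (edgeR adjusted p = 0.680). Bmp1, the procollagen C-proteinase gene, Tll1 and Pxdn, a peroxidasin gene that crosslinks collagen IV, had −0.22 ± 0.11, −0.56 ± 0.24 and −0.18 ± 0.12 (edgeR adjusted p = 0.146, 0.101 and 0.287). Mrc2 encodes the endocytic receptor that takes up collagen for degradation. It fell from 1.41, 1.45 and 1.57 CPM to 0.504 and 0.434 CPM (−1.66 ± 0.15; edgeR adjusted p = 0.000243), with no overlap, and was the largest difference among the 3 tested receptor genes. Cd44 and Lair1 did not pass (edgeR adjusted p = 0.472 and 0.644).

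Among 3 tested proteases and inhibitors, Mmp9, a gelatinase gene, was lower (−0.57 ± 0.16; edgeR adjusted p = 0.0254), a call kept only without wildtype 3 when libraries were left out (0.0570 to 0.139 otherwise). Reck and Timp4, both protease inhibitor genes, had −0.01 ± 0.09 and 0.12 ± 0.25 (edgeR adjusted p = 0.944 and 0.750). The collagenase genes Mmp1a, Mmp8 and Mmp13 had 0 counts in all 5 libraries. Of 10 tested basement membrane partners, 2 were higher, 1 was lower and 7 did not pass. Hmcn1, a hemicentin gene, rose from 0.233, 0.298 and 0.421 CPM to 0.997 and 0.777 CPM (1.43 ± 0.26; edgeR adjusted p = 0.00387), and Papln rose by 1.44 ± 0.35 (edgeR adjusted p = 0.0136). Frem1, an extracellular matrix gene of epithelial basement membranes, fell by 1.01 ± 0.32 (edgeR adjusted p = 0.0392), a call lost on omitting wildtype 2, deleted 1 or deleted 2 in turn (edgeR adjusted p = 0.0856, 0.0861 and 0.228) and with limma-voom (adjusted p = 0.0666). The laminin gene Lamb3 had 0.56 ± 0.19 (edgeR adjusted p = 0.05004), just outside the threshold. The Papln call ended without deleted 2 (edgeR adjusted p = 0.132).

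Of 8 tested proteoglycan and glycoprotein genes, Comp, which binds collagen II and IX fibrils in cartilage, was the only call. It stood at 0.169, 0.193 and 0.208 CPM in wildtype and at 0.450 and 0.384 CPM in deleted libraries (1.11 ± 0.23; edgeR adjusted p = 0.00650), and the call ended without deleted 1 (edgeR adjusted p = 0.0656).

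Markers of cells that make much collagen were read beside these results. Calls among them are to be read against the 18.9% of tested symbols called higher and 12.9% called lower. Fibroblast markers other than collagens, the usual sign of feeder cells, summed to 8.74 to 11.3 CPM in wildtype and 11.0 to 11.2 CPM in deleted libraries. Of 15 listed, 12 had rows and 4 were tested, with Pdgfrb higher (0.49 ± 0.11; edgeR adjusted p = 0.0117), Pdgfra lower (−1.02 ± 0.22; edgeR adjusted p = 0.00847), and Fbn1 and Twist1 not past the threshold (edgeR adjusted p = 0.499 and 0.543). The Pdgfrb call ended without deleted 2 and the Pdgfra call without deleted 1 (edgeR adjusted p = 0.113 and 0.0692), and that of Pdgfrb also when only its bin with the most counts was used (adjusted p = 0.0765). Fbn1 stood at 4.69, 4.99 and 6.90 CPM in wildtype and at 6.22 and 6.13 CPM in deleted libraries, and made up most of the sum. Of the 8 untested markers, Fap and Tcf21 had 0 counts in every library. Dcn had 3 counts in wildtype 3, Lum had 1 in deleted 2 and Postn had 1 in deleted 1, with 0 elsewhere. S100a4 had 1, 1 and 2 counts in wildtype and 3 and 6 in deleted libraries, Twist2 had 5, 6 and 12 against 2 and 4, and Prrx1 had 1, 2 and 5 against 1 and 2.

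Chondrocyte markers, of which 6 of the 11 listed had rows, summed to 1.83 to 1.87 CPM in wildtype and 2.28 to 2.31 CPM in deleted libraries. Among all tested symbols, 18.9% were called higher and 12.9% lower. Of 5 tested, 2 were higher, Comp and Sox5, a cartilage transcription factor gene at 14 and 15 counts in deleted libraries against 6, 2 and 11 in wildtype (1.84 ± 0.45; edgeR adjusted p = 0.0141). Sox5 had enough counts for the filter in the 2 deleted libraries and in no wildtype one, and its call was lost on omitting either deleted library (edgeR adjusted p = 0.0822 and 0.0852). Sox9, the master regulator of cartilage and an activator of Col2a1, had 6, 5 and 26 counts in wildtype and 2 and 0 in deleted libraries and was not tested. Matn1 and Matn3, the matrilin genes of cartilage, had −0.80 ± 0.29 and 0.34 ± 0.13 (edgeR adjusted p = 0.0599 and 0.0706). Sox6 stood at 0.161, 0.166 and 0.143 CPM in wildtype and at 0.118 and 0.162 CPM in deleted libraries, with overlapping groups. The rise of the sum lay mostly in Matn3 (mean 1.12 CPM in wildtype, 1.42 CPM in deleted libraries) and Comp (0.190 and 0.417 CPM).

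Markers of primitive and parietal endoderm, cells that lay down collagen IV, summed to 8.66 to 9.67 CPM in wildtype and 5.99 to 7.26 CPM in deleted libraries. Of 10 tested, 3 were lower (Cubn, Sox7 and Pdgfra, at −2.07 ± 0.27, −0.89 ± 0.16 and −1.02 ± 0.22; edgeR adjusted p = 0.000869, 0.00370 and 0.00847), none was higher and 7 did not pass. For comparison, 12.9% of tested symbols and 19.6% of all tested genes were called lower. Most of the fall in the sum lay in Cubn (mean 1.87 CPM in wildtype, 0.442 CPM in deleted libraries) and Sox7 (2.32 and 1.25 CPM). In its most counted bin alone, Cubn had −0.80 and its call was lost (edgeR adjusted p = 0.172). Plat had 0.23 ± 0.18 (edgeR adjusted p = 0.340). Gata6, Sox17, Foxa2 and Thbd had overlapping groups. Dab2 stood at 1.95, 2.28 and 2.24 CPM in wildtype and at 2.15 and 2.46 CPM in deleted libraries, and Gata4 at 0.756, 0.805 and 0.722 against 0.675 and 0.818 CPM, both with overlapping groups. Among the 2 untested markers, Afp had 2, 0 and 0 counts in wildtype and 8 and 3 in deleted libraries, and Ttr had 0 in every library. The part of these cell types in the collagen results was not tested.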

How the data were processed

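Per the file headers and labels, the authors deposited 1 table of whole-number read counts per exon bin for 5 libraries. The submitters' processing notes name STAR and mm9. Not given in the sources used here are annotation, strand setting and filters, so reads of overlapping or antisense genes, and of assembly IDs that overlap a symbol, cannot be told apart. The 56 spike-in rows (0.000320% to 0.000508% of counts) entered neither library sizes nor tests.

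Bin counts were summed per gene and filtered with edgeR's filterByExpr (10 counts at the median library size, in at least 2 libraries). They were scaled by TMM and tested by edgeR's quasi-likelihood F test over all 16259 tested genes, with Benjamini-Hochberg adjustment and a threshold of 0.05 (R 4.3.3, edgeR 4.0.16, limma 3.58.1, DESeq2 1.42.0). SE is the log2 fold change divided by the square root of F. A read crossing bin borders entered the filter and the test more than once. Exon usage was tested with diffSpliceDGE. Between libraries of a group, chi-square per degree of freedom was 9.96 to 93.4. Reads counted in more than 1 bin raise this value, so it cannot settle whether libraries are repeats. Each was treated as a separate library. Tests were tried on simulated data. Collagens, classes and lists were chosen with earlier results of these data known. Every tested collagen is named, and up to 4 members per list by p. Alternatives covered scaling, filters, DESeq2, limma-voom, the most counted bin, a fold change of 1.5, a replicate block and each library left out. Protein sequences were not used here.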

Additional observations from a re-analysis of the deposited data

Results flagged for a closer look

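Spike-in RNA, which no comparison here uses, was present in every library: spike-in names held 636, 423 and 682 counts in wildtype 1, 2 and 3, and 395 and 480 counts in deleted 1 and 2. These were flagged because they are a signal outside the genes compared.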

How the results depend on the processing

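DESeq2 size factors, limma-voom and a test without the low-count filter kept the counts of genes called within 1.5 times. With library sizes from symbol rows alone, 1183 genes passed of the 3547 tested, against 6421 of 16259. Against a fold change of 1.5, 814 genes, 0 collagens and 3 listed genes passed, against 6 collagens and 14 listed genes. In the most counted bin alone, 0 of the 8 collagens tested passed (1 lower at an unadjusted p under 0.05 with edgeR) and 8 listed genes did. Leaving out single libraries gave 3206 to 8282 genes, 2 to 8 collagens and 8 to 19 listed genes. Exon usage of collagens stayed at 0 calls in all alternatives run, and the class sums kept their direction, at 0.26 to 0.44 (fibrillar), 0.48 to 0.88 (FACIT) and −0.50 to −0.31 (network) with single libraries left out. Nothing in the labels says that equal replicate numbers share a source, and with 2 deleted libraries, whose deviations mirror each other, correlations cannot settle it, so the numbers were not used as pairs. With the replicate block, which leaves wildtype 3 without a partner, 8250 genes and 9 collagens passed (the 6 called genes, Col16a1 and Col22a1 higher, Col6a5 lower), and 19 listed genes.

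Signs that changed belong to genes that passed in neither setting, and the cause was not tested. Col27a1 had −0.0559 with symbol rows alone and −0.00167 with no low-count filter, Col6a6 0.13 in its most counted bin, and Col4a5, P3h2 and Timp4 had 0.0357, 0.0874 and −0.0181 with the block. With single libraries left out, log2 fold changes ran from −0.00538 to 1.17 for Col12a1, −0.16 to 0.37 for Col27a1, −0.81 to 0.25 for Col4a5, −0.12 to 0.29 for Col7a1, −1.79 to 0.33 for Lair1, −2.10 to 0.44 for P3h2, −0.0528 to 0.0126 for Reck, −0.0252 to 0.17 for Timp4 and −0.50 to 0.0860 for Twist1. Depth is a limit as well: 17 of the 33 members had fewer than 100 counts over all 5 libraries.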
